A study of Homo sapiens with 9 samples.

Results

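Expression in SKOV3, a line from an ovarian adenocarcinoma, was compared with that in IOSE80, an immortalized line of ovarian surface epithelium. Both are human cell lines, neither received a treatment, and per the study's methods both were grown in the same serum-supplemented medium. All 3 arrays of each line were used, which makes 6 of the 9 arrays in the series. The other 3 arrays hold SKOV3-DDP, a cisplatin-resistant variant of SKOV3, and entered none of the main tests. Each group stands for 1 cell line, so carcinoma against normal epithelium and 1 line against another cannot be told apart, and neither can an effect of immortalization. The labels number the arrays of a line but do not say that they come from separate cultures, so the p-values measure only the spread between arrays, which may be technical.

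Total RNA was labeled with Cy3 and hybridized to Arraystar human lncRNA arrays (version 4), 1 sample per array. Each array carries 60904 probes for lncRNAs and mRNAs, with 1 spot each, that are listed by an array identifier alone. No gene name or class of RNA stands beside these probes in the files used here, and lncRNAs and mRNAs are therefore pooled in every count. A set of 20 further probes, spotted 10 times each, is labeled with RefSeq accessions of protein-coding genes, and 18 of them are described. The level of a probe is the log2 of its background-corrected intensity minus the 75th percentile of the same array, taken over the 20006 array probes detected on all 6 arrays. A probe was detected on an array, or on, where Feature Extraction flagged it as well above background. Each probe was compared between the lines and never with another probe. A list of 18 markers, of ovarian surface epithelium, ovarian carcinoma, leukocytes, endothelium and fibroblasts, had 0 genes with a named probe, so neither the identity of the lines nor the presence of other cells was checked.

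The ovarian surface epithelium is a single layer of flat to cuboidal cells that covers the ovary, and it carries epithelial keratins together with mesenchymal vimentin. Carcinoma cells in culture often carry many gains and losses of chromosome segments, and they commonly draw on glycolysis and polyamine synthesis for growth. The named genes on this array are mostly ones that nearly every cell uses, such as those for actin, ribosomal proteins and glycolytic enzymes. Genes of this kind are often taken as references between samples.

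PGK1 and ODC1 had the largest rises among the named genes described, and the 250 bases before their transcription start are printed to show what lies ahead of them. The windows come from RefSeq's GRCh38.p14 assembly and are written on the strand of the gene. Capitals mark ACGTG on either strand, which reads CACGT where it lies on the opposite strand. ACGTG holds the core letters of the element that hypoxia-inducible factors bind, and other factors bind the same letters within CACGTG. The window of PGK1 is chrX:78103998-78104247 on the plus strand and that of ODC1 is chr2:10448328-10448577 on the minus strand.
PGK1: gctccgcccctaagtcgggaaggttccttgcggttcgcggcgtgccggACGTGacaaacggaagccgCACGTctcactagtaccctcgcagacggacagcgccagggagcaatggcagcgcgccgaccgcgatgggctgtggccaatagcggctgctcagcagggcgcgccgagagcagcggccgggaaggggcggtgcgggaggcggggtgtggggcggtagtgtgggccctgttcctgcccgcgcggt
ODC1: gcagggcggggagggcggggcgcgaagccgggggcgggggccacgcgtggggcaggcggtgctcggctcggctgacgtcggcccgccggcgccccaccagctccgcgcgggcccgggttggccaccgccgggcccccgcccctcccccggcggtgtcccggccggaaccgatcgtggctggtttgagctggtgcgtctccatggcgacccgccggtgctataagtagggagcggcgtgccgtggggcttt
The PGK1 window held 2 ACGTG matches, and the ODC1 window held 0. A second ODC1 start in the same table had 2 matches in its window, chr2:10448013-10448262, and both came from 1 CACGTG, which reads the same on both strands. Of 35116 windows of the same length before RefSeq starts, 18.5% held ACGTG and 6.34% held CACGTG. G and C made up 71.2% of the PGK1 window and 78.8% of the first ODC1 window. A match describes the letters only, and binding was not measured.

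PGK1 and ODC1 rose and RPL10 fell in SKOV3, and these 3 were the only genes among those described that passed both an adjusted p under 0.05 and a fold change over 2. PGK1, the glycolytic enzyme phosphoglycerate kinase, was 4.76-fold higher in SKOV3 by the probe described here, while human control probes for this gene gave smaller differences. ODC1, ornithine decarboxylase, the rate-limiting enzyme of polyamine synthesis, was 3.15-fold higher. RPL10, a protein of the large ribosomal subunit, was 2.14-fold lower. Of the 18 genes, 17 were detected on all 6 arrays and were tested, and 3 of the 17 (17.6%) were called. Over all tested probes 36.1% were called, 17.6% higher and 18.5% lower in SKOV3. That share includes probes detected on only 3 to 5 arrays, of which 3556 of 5851 were called. Among probes detected on all 6 arrays, as the 17 genes were, 5795 of 20025 were called. Whether these shares differ was not tested, and the median level difference was 0.08 over the 17 genes and 0.11 over all tested probes.

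The level of PGK1, which makes ATP in glycolysis, was -2.32, -2.47 and -2.34 on the IOSE80 arrays and -0.09, -0.14 and -0.15 on the SKOV3 arrays. Every SKOV3 array was above every IOSE80 array, and the difference was 2.25 (SE 0.089, limma, n = 3 arrays per line, adjusted p = 3.83e-06, 95% interval 2.04 to 2.47). The mean intensity of this probe was 597 in IOSE80 and 2656 in SKOV3. The difference ranged from 2.11 to 2.28 over the alternative settings tried, and PGK1 was called under each of them. That range holds for this probe only. With no scaling it differed by 2.15, and the array maker's human control probes Human-PGK1_3 and Human-PGK1_5 by 1.14 and 1.67, so the size depends on the probe.

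GAPDH, the glycolytic enzyme that acts just before PGK1, had levels of 5.58, 5.25 and 5.45 in IOSE80 and 5.64, 5.70 and 5.78 in SKOV3. The arrays of the lines did not overlap, but the difference of 0.28 (SE 0.115) had an adjusted p of 0.0762 by limma. The 95% interval ran from -0.0018 to 0.56, which lies within 2-fold. Among the glycolytic genes with a named probe, PGK1 was therefore called and GAPDH was not.

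The level of ODC1, which turns ornithine into the polyamine putrescine, was 2.66, 2.69 and 2.72 in IOSE80 and 4.47, 4.37 and 4.19 in SKOV3. All 3 SKOV3 arrays were higher, and the difference was 1.65 (SE 0.10, limma, adjusted p = 2.6e-05, 95% interval 1.40 to 1.91). ODC1 was called under each alternative setting, with differences of 1.55 to 1.81.

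Of the 4 genes for the ribosome and translation, 1 was called. The RPL10 level was -3.78, -3.67 and -3.80 in IOSE80 and -4.79, -4.81 and -4.95 in SKOV3. All 3 SKOV3 arrays were lower, and the difference was -1.10 (SE 0.0948, limma, adjusted p = 0.00011, 95% interval -1.33 to -0.87). This probe was dim, with a mean intensity of 231 in IOSE80 and 101 in SKOV3, and with normexp background correction the difference was -0.73, which is under 2-fold. RPLP1, of the ribosomal stalk, differed by 0.08 (95% interval -0.15 to 0.31), and RPS18, of the small subunit, by 0.01 (-0.22 to 0.24, a sign that flipped under other scalings). EIF3D, a subunit of the initiation factor eIF3, differed by -0.24 (-0.55 to 0.07), with SKOV3 arrays at 4.96, 4.82 and 4.57 against 5.06, 4.93 and 5.08 in IOSE80. The adjusted p values of these 3 were 0.505, 0.94 and 0.151 by limma, so RPL10 alone passed among these 4 genes.

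None of the 4 genes of the actin cytoskeleton was called, and they did not move one way. PFN1, profilin, which binds actin monomers, was lower in SKOV3, with levels of 5.49, 5.24 and 5.42 in IOSE80 and 4.99, 5.03 and 5.01 in SKOV3. Its arrays did not overlap, and the difference of -0.37 (SE 0.10, limma, adjusted p = 0.0174) was under 2-fold. ARHGDIA was higher in SKOV3, with levels of 3.74, 3.52 and 3.66 in IOSE80 and 4.16, 4.09 and 3.91 in SKOV3. Its difference was 0.42 (SE 0.112, limma, adjusted p = 0.0178). The cytoplasmic actins ACTB and ACTG1 differed by 0.09 (95% interval -0.14 to 0.32) and -0.12 (-0.33 to 0.10), with adjusted p values of 0.414 and 0.285 by limma. The difference of ACTB changed sign with the authors' processed values and with no scaling.

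The 2 chromatin genes passed the adjusted p in opposite directions, both by less than 2-fold. H3-3A, which encodes the replacement histone H3.3, was higher, at 5.02, 4.90 and 5.04 in IOSE80 and 5.57, 5.52 and 5.40 in SKOV3, a difference of 0.51 (SE 0.0948, limma, adjusted p = 0.00382). PRMT1, the main enzyme that dimethylates arginine asymmetrically, was lower, at 4.96, 4.72 and 4.89 in IOSE80 and 4.17, 4.12 and 4.02 in SKOV3. The arrays did not overlap for either gene, and the PRMT1 difference was -0.75 (SE 0.104, limma, adjusted p = 0.00101, 95% interval -1.01 to -0.50), so the interval reaches just past 2-fold.

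Neither of the 2 mitochondrial genes passed the test. COX4I1, a subunit of cytochrome c oxidase, differed by 0.05 (95% interval -0.19 to 0.30), and MTX1, an outer membrane protein of the import machinery, by 0.09 (-0.17 to 0.36). The adjusted p values were 0.67 and 0.477 by limma, the arrays of the lines overlapped for both genes, and both intervals lie within 2-fold. Both signs, and that of RPLP1, flipped with no scaling between the arrays.

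Of the remaining genes, DYNLL1 was higher in SKOV3 by less than 2-fold. DYNLL1, a light chain of dynein that also joins other protein complexes, had levels of 4.93, 4.78 and 4.92 in IOSE80 and 5.47, 5.44 and 5.42 in SKOV3. The difference was 0.57 (SE 0.0888, limma, adjusted p = 0.00176). RACK1, a scaffold protein on the small ribosomal subunit, differed by -0.06 (95% interval -0.30 to 0.19, adjusted p = 0.654 by limma). GRM4, a metabotropic glutamate receptor, was well above background on none of the 6 arrays, with a mean intensity of 16.8 in IOSE80 and 16.5 in SKOV3, and was not tested.

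Beside the 3 called genes, 5 of the 17 passed the adjusted p by less than 2-fold, 3 of them higher (DYNLL1, H3-3A and ARHGDIA) and 2 lower (PFN1 and PRMT1) in SKOV3, and 9 did not pass. Only H3-3A and PRMT1 of these 5 passed under every alternative. PFN1 reached an adjusted p of up to 0.0753 (no filter) and ARHGDIA of up to 0.0699 (no filter), and both also lay above 0.05 with single arrays left out, at 0.0558 to 0.069 for PFN1 (without IOSE80 replicate 1 or 3 or SKOV3 replicate 2) and 0.0541 to 0.0655 for ARHGDIA (without IOSE80 replicate 2 or 3 or SKOV3 replicate 2). DYNLL1 reached 0.087 with all 9 arrays in the model (limma throughout). Over all tested probes 63.2% passed the adjusted p at any size. The arrays of the lines did not overlap for 11 of the 17 genes (64.7%), against 70.3% of all tested probes. The 95% interval lay within 2-fold for 13 of the 17 genes (76.5%), against 41.5% of all tested probes. The 17 genes were on all 6 arrays and had 10 spots each, while the array probes had 1. Among all probes on all 6 arrays the share was 49.8%, and in the brightest of 4 equal parts of the tested probes it was 52.4%. What brightness and the number of spots add to the gap was not tested. RPS18, the brightest of the genes described in both lines, had a mean intensity of 176200 in IOSE80 and 165600 in SKOV3. Whether differences are compressed at such intensities was not tested. The sequences of the probes were not used here, and binding of RNA from pseudogenes or related genes was not checked.

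**Figure D1:**
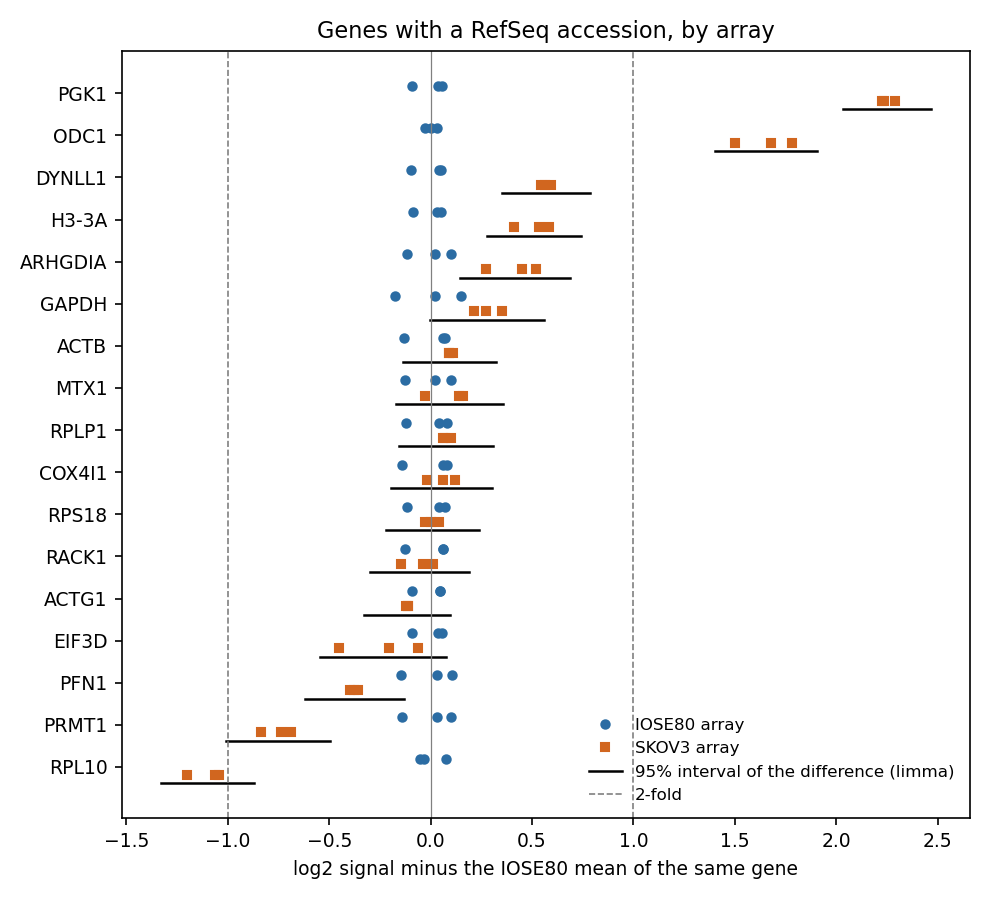
Levels of the 17 tested genes described with a RefSeq accession on each array, as the log2 signal minus the mean of the 3 IOSE80 arrays for the same gene. Circles are IOSE80 arrays, squares are SKOV3 arrays, and the line under each gene is limma's 95% interval of the difference; the intervals of PGK1 and ODC1 lie wholly beyond 2-fold (dashed), while that of RPL10, -1.33 to -0.87, spans it.

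Over the whole array the lines differed widely. Of 25876 probes detected on at least 3 of the 6 arrays, 4563 were higher and 4788 lower in SKOV3 at an adjusted p under 0.05 and a fold change over 2 (limma, 9351 in all, 36.1%). This filter also lets in probes through the line where they are high. Of the calls, 1224 were detected on all 3 SKOV3 arrays and no IOSE80 array, and 1418 on all 3 IOSE80 arrays and no SKOV3 array. The filter favors such calls, and 5795 calls were of probes detected on all 6 arrays. Correlation of levels over the tested probes was 0.991 between IOSE80 arrays, 0.981 to 0.991 between SKOV3 arrays, and 0.808 to 0.816 between arrays of different lines. The points of such a correlation are probes that share a labeling and an array, so it is given as a description. The median SD over 3 arrays was 0.12 in IOSE80 and 0.20 in SKOV3, so the SKOV3 arrays differed more among themselves. SKOV3 replicate 3 was scanned in another run than the other 5 arrays and lay over 2-fold from both other arrays of its line at 799 probes, against 239 to 420 probes for each of the other arrays. Without it 9176 probes were called.

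**Figure D2:**
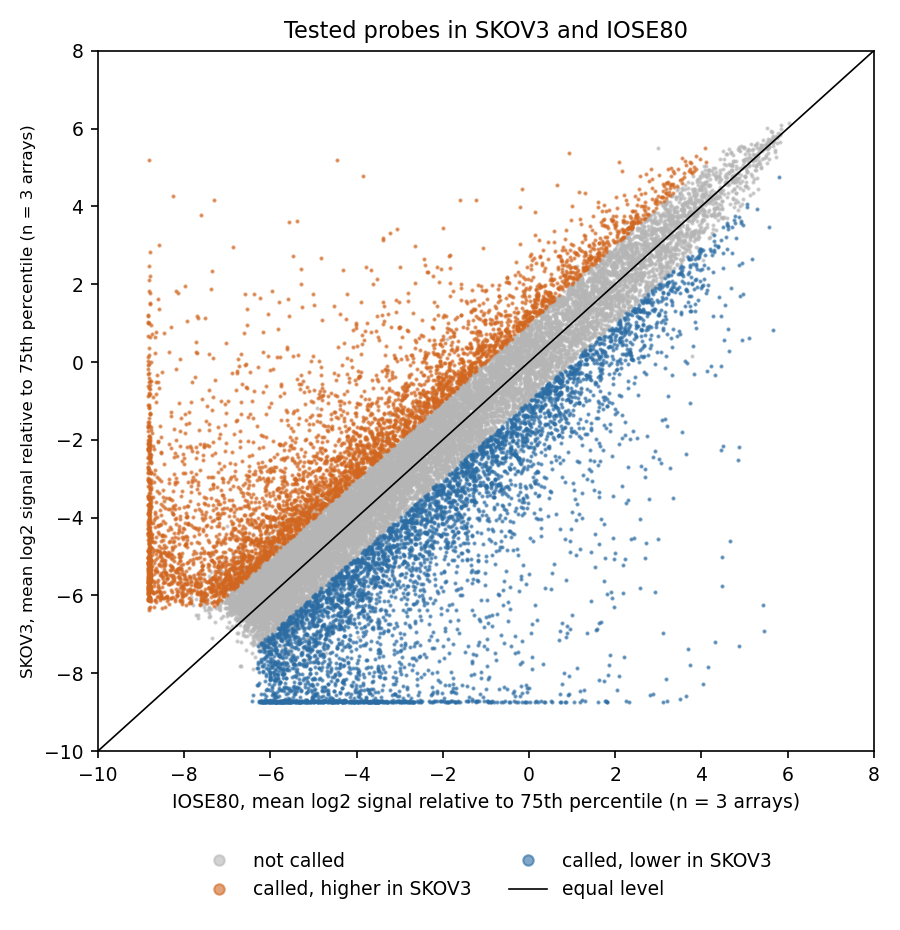
Mean log2 signal of the tested probes, without the 2 genes not reported, in IOSE80 (horizontal axis) and SKOV3 (vertical axis), 3 arrays per line. Signal is relative to the array's 75th percentile over the 20006 array probes detected on all 6 arrays. Orange points are the 4563 probes called higher and blue points the probes called lower in SKOV3, and the straight rows of points at the left and the bottom lie at the lowest value Feature Extraction gave.

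A fold change is bounded where a line lies at that lowest value. On all 3 arrays of a line, 210 tested probes in IOSE80 and 345 in SKOV3 were within 0.1 log2 units of the lowest value of the array, and all of these were called. Sizes were therefore read only from the 20025 probes detected on all 6 arrays, of which 2857 were higher and 2938 lower in SKOV3. Among those higher, 2064 (72.2%) differed by 2- to 4-fold, 657 by 4- to 16-fold, 111 by 16- to 64-fold and 25 by over 64-fold. Among those lower, 1933 (65.8%) differed by 2- to 4-fold, 847 by 4- to 16-fold, 120 by 16- to 64-fold and 38 by over 64-fold. The median called difference was 1.50 upward and -1.64 downward. For 9965 of the 20025 probes (49.8%) the 95% interval of the difference lay within 2-fold.

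**Figure D3:**
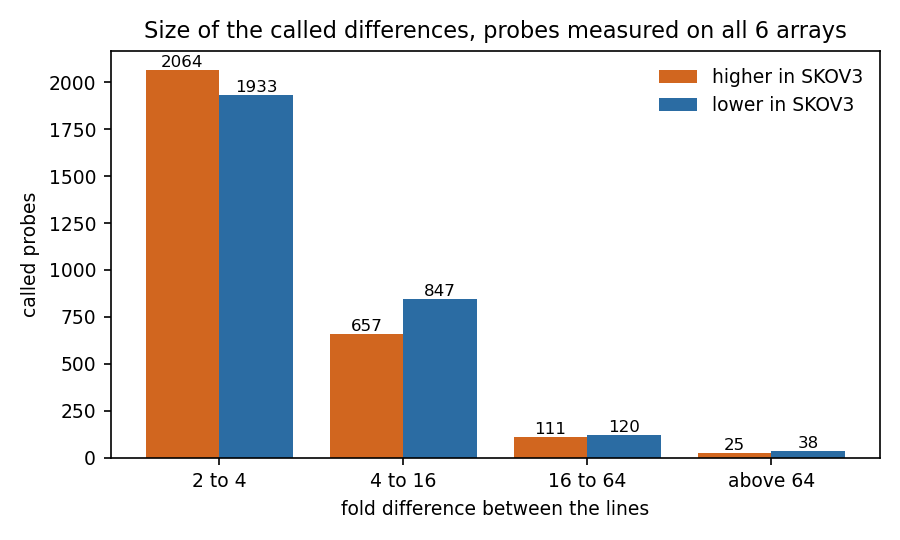
Number of called probes in each class of fold difference, among probes detected on all 6 arrays. Most called probes lie between 2- and 4-fold in both directions, and above 4-fold more probes were lower than higher in SKOV3 in each class.

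Calls in both directions were spread over the range of signal. With the tested probes ordered by mean level and divided into 4 equal parts, 21.3% of the dimmest part were higher and 22.3% lower in SKOV3. In the brightest part 15.1% were higher and 15.6% lower. The median standard error fell from 0.223 in the dimmest part to 0.116 in the brightest, and the share of intervals within 2-fold rose from 27.9% to 52.4%.

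The largest rise among called probes detected on all 6 arrays was that of ASHGV40005742. Its intensity was 145, 164 and 122 in IOSE80 and 110300, 105100 and 103300 in SKOV3. This is a 797-fold difference (9.64 on the log2 scale, SE 0.115, limma, adjusted p = 6.73e-08). The largest fall was that of ASHGV40046418, with an intensity of 67190, 71850 and 67700 in IOSE80 and 80.2, 53.5 and 35.4 in SKOV3, a 1206-fold difference (-10.24 on the log2 scale, SE 0.314, adjusted p = 1.43e-06). For each probe the arrays within a line lay close together beside the gap between the lines. The files used here do not say which transcript either probe detects.

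Some probes were flagged as detected in a single line. A probe was taken as on in one line and off in the other where it was well above background on all 3 arrays of the first and on none of the 3 of the second. By this rule 1275 of the 60904 array probes (2.09%) were on in SKOV3 and off in IOSE80, and 1504 (2.47%) were on in IOSE80 and off in SKOV3. With the flag for positive and significant signal in place of well above background, the sets held 833 and 1051 probes. The flags come from the contrast itself, so these sets are described without a test. A further 20006 probes (32.8%) were on in both lines on all 6 arrays, and 28988 (47.6%) were on none of them.

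For a probe that is off in a line, the fold is a lower bound, set against the lowest signal among probes well above background on each dim array or the probe's own signal where that is higher. The bound passed 2-fold for 854 of the 1275 probes on in SKOV3 (67.0%) and for 966 of the 1504 on in IOSE80 (64.2%). It passed 16-fold for 197 and 205 probes, and 64-fold for 64 and 86. The median bound was 2.84-fold for the SKOV3 set and 2.88-fold for the IOSE80 set. The median intensity in the line where the probe was on was 89.9 in the SKOV3 set and 104 in the IOSE80 set, against 10.5 and 10.4 in the line where it was off. Many members were therefore dim even where they were on.

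**Figure D4:**
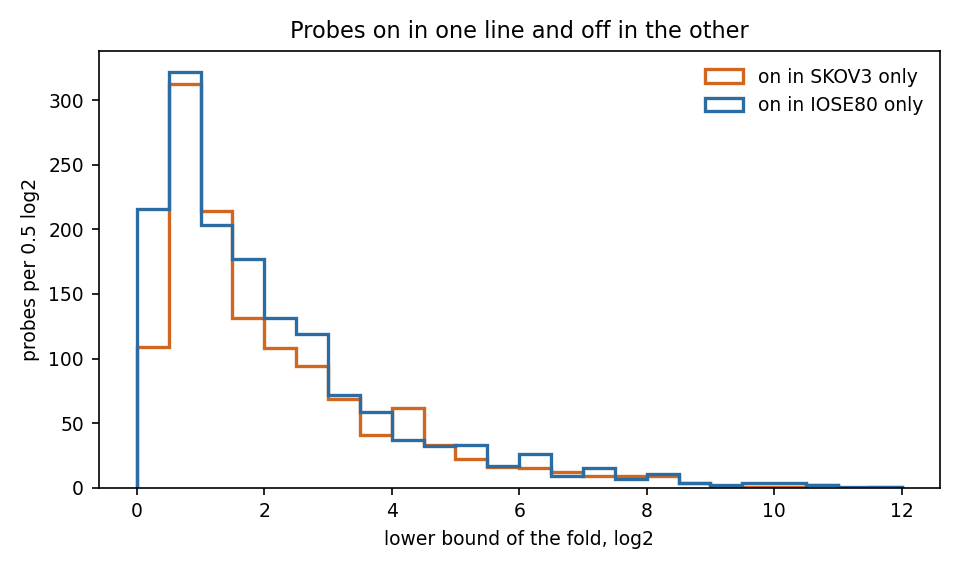
Lower bound of the fold, on the log2 scale in steps of 0.5, for the 1275 probes on in SKOV3 only and the 1504 on in IOSE80 only. Both distributions peak below 2-fold (1 on the log2 scale) and reach a largest bound of 3355-fold in SKOV3 and 3751-fold in IOSE80.

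The largest bound in the SKOV3 set was that of ASHGV40049925, at least 3355-fold higher in SKOV3, with an intensity of 109600, 100900 and 108500 there and of 5.27, 7.90 and 7.69 in IOSE80. The largest in the IOSE80 set was that of ASHGV40009985, at least 3751-fold higher in IOSE80, with an intensity of 136000, 133800 and 137700 there and of 25.3, 21.9 and 25.2 in SKOV3. Both probes were bright on all 3 arrays of one line and well above background on none of the other's.

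Fewer probes lay just outside the rule than inside it. There were 382 probes on in 2 SKOV3 arrays and no IOSE80 array, and 507 on in all 3 SKOV3 arrays and 1 IOSE80 array. There were 484 probes on in 2 IOSE80 arrays and no SKOV3 array, and 498 on in all 3 IOSE80 arrays and 1 SKOV3 array. Of the 60 negative control probes, 1 (1.67%, exact Clopper-Pearson 95% interval 0.0422% to 8.94%) met the rule, with an intensity of 94.0, 142 and 103 in IOSE80 and 6.73, 7.79 and 7.21 in SKOV3. The count of control probes covers both directions, while the 2.09% and 2.47% of array probes cover 1 direction each. With 60 probes the interval is too wide to say whether array probes met the rule more often than control probes. It also treats the probes as independent, though they share the same arrays and labelings, so it measures no spread between cultures of a line.

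The sets were also chosen on the arrays of 2 replicate numbers and read on the third array of each line, which the choice had not used. Of 1500 to 1776 probes chosen as on in SKOV3, 71.8% to 85% were on in the left-out SKOV3 array and off in the left-out IOSE80 array, and 94.2% to 95.7% were higher in SKOV3. Of 1693 to 2188 probes chosen as on in IOSE80, 68.7% to 88.8% met both flags on the left-out arrays, and 89.9% to 96.4% were higher in IOSE80. By the rule, the probes that met both flags there are the 1275 and 1504 probes of the full sets. Those shares therefore restate the sizes of the sets, and the left-out arrays may not come from separate cultures. The lowest of these values for the IOSE80 set came with replicate 3 left out, where 79.3% of the chosen probes were on in the left-out IOSE80 array and 84% were off in the left-out SKOV3 array. The median difference on the left-out arrays was 2.78 to 2.91 for the SKOV3 set and 2.41 to 3.03 for the IOSE80 set, on the log2 scale.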

How the data were processed

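Labeled RNA of SKOV3 and IOSE80 was read on 3 one-color arrays each. The authors deposited Feature Extraction files, 1 per array, that give each spot's background-corrected intensity and quality flags (11.0.1.1 per the file headers, 10.7.3.1 per the submitters' processing notes). They also deposited processed log2 values, of which each column ranked closest to its own array (lowest Spearman correlation 0.962), with a median of 3.70 in each column. That table's normalization is not given in the sources used here. The paper names a low-input kit for labeling, and the labels name random priming. The deposited flags for signal well above background, and for positive and significant signal, were used as given.

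The intensities were log2 transformed, averaged over the spots of a probe without spots marked as non-uniform (11 to 39 per array) or population outliers, and scaled to the 75th percentile. Over all array probes, a wider set than the one used for scaling, the 75th percentile of intensity was 173 ± 16.6 (SD, n = 3) in IOSE80 and 168 ± 13.9 in SKOV3. Of these probes 40.9% ± 1.68 and 40.6% ± 0.558 were well above background, and 0 spots were saturated. The number of arrays limits the precision. Probes on at least 3 of the 6 arrays entered limma 3.58.1 (R 4.3.3, lmFit and eBayes, line as the factor) with Benjamini-Hochberg adjustment over all tested probes, and a call needed an adjusted p under 0.05 and a fold change over 2. The code of the fit was run on simulated data with the IOSE80 spread in both lines and few changed probes. Those settings differ from these data, so that run checks the code only. Python 3.11.15 with pandas 2.3.3, numpy 2.4.6 and matplotlib 3.10.9 was used for summaries and plots.

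The 20 accessions were matched to symbols in RefSeq tables of GRCh38.p14, and 2 of the genes are not reported here. The arrays use hg19, so coordinates are given only for RefSeq promoters. Named were all other genes with an accession, the largest rise and fall among called probes detected on all 6 arrays without overlap, and the probe with the largest bound in each on and off set. The members, lists and rules were chosen with earlier results of these data known. Alternatives were other scalings, filters, background correction (normexp, offset 50, on the median spot signal), the authors' values, the methods' t-test, all 9 arrays, the replicate or scan as a block, all spots kept, other flags, and each array left out. No scaling between arrays was added after seeing the data.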

Additional observations from a re-analysis of the deposited data

Results flagged for a closer look

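Of 6 control probes for PGK1 outside the main comparison, 5 were higher in SKOV3. They are the array maker's labeling controls and were compared as log2 intensity without scaling, averaged over 3 arrays per line. The human probe Human-PGK1_3 was higher in SKOV3 by 1.14 (16.21 ± 0.0475 in IOSE80, 17.35 ± 0.0503 in SKOV3, SD, n = 3) and Human-PGK1_5 by 1.67 (9.50 ± 0.0731 and 11.17 ± 0.332). Of the probes made for the mouse and rat genes, Mouse-PGK1_3 was higher by 2.14, Mouse-PGK1_5 by 1.48 and Rat-PGK1_5 by 1.58. Each of these 5 was well above background on all 6 arrays, and every SKOV3 array was above every IOSE80 array. The sixth, Rat-PGK1_3, was lower in SKOV3 by a difference of -1.83, at 3.44, 5.75 and 5.08 in IOSE80 and 2.96, 2.97 and 2.84 in SKOV3, and was well above background on 1 IOSE80 array and 0 SKOV3 arrays. The human GAPDH controls differed by 0.24 (Human-GAPDH_3) and -0.12 (Human-GAPDH_5). These differences were not tested.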

How the results depend on the processing

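Calls rest on 3 arrays of 1 line each, and dim probes set the largest uncertainties. PGK1 and ODC1 were called under every alternative run, and RPL10 under every one but normexp (-0.733). Calls were 9351 with 4563 higher and 4788 lower. They came to 5810, 2872 and 2938 when only probes on all 6 arrays were tested, and to 16347, 8555 and 7792 with no minimum fold. Normexp called 6654, of which 6609 were among the original calls in the same direction (70.7% of them), and 8227 calls (88.0%) were kept with every single array left out. Leaving out 1 array gave 9075 to 9723 calls, a median difference of 0.072 to 0.13 and a share without overlap of 72.8% to 77.5%. Leaving out a replicate number in both lines gave on and off sets of 1500 to 1776 (SKOV3) and 1693 to 2188 (IOSE80). The median difference was 0.061 with the percentile over all probes and 0.011 with no scaling, which called 4100 probes higher and 5209 lower (44.0% of calls higher). The share without overlap was 35.7% with no filter, since undetected probes then enter it. With the positive and significant flag the sets held 833 (SKOV3) and 1051 (IOSE80) probes, and with a bound over 2-fold 854 and 966. The cause of the other changes was not tested.

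With the authors' values GAPDH, ACTG1 and EIF3D had adjusted p values of 0.0292, 0.0345 and 0.0171 (limma), all under 2-fold, and EIF3D had 0.0226 with quantile normalization. Differences near 0 changed sign. RPS18 was -0.078 with quantile normalization, -0.04 with the percentile over all probes, -0.06 with the authors' values, -0.022 with all 9 arrays, -0.09 with no scaling, and -0.049 to 0.046 with 1 array left out. ACTB was -0.033 with the authors' values and -0.004 with no scaling. COX4I1 was -0.046, RPLP1 -0.021 and MTX1 -0.004 with no scaling, and COX4I1 was -0.015 to 0.092 with 1 array left out.

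The deviations of same-numbered arrays correlated at 0.039, -0.074 and -0.113, so little shared deviation was seen between them. Whether same-numbered arrays were handled together cannot be read from these values. With the replicate number as a block, 9351 probes were called, 4556 higher and 4795 lower, and 99.2% of the original calls were kept. With the block, PFN1 had an adjusted p of 0.0612 (limma). The block cannot be set for the share without overlap, which comes from no model. The scan as a block is the same fit as leaving out SKOV3 replicate 3, and keeping all spots leaves the on and off sets as they were, since flags were read from all spots.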

Other observations

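Called probes with neighboring identifier numbers moved the same way more often than distant ones. Of 1938 pairs of called probes 1 step apart in number, 1284 (66.3%) had the same direction, against 60.0% at 2 steps, 52.5% at 10 steps and 50.7% at 1000 steps. The correlation of differences was 0.157 over 13279 tested pairs 1 step apart and -0.005 at 1000 steps. The probes share arrays, and the files used here do not say how the identifiers are ordered, so the values are a description.

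On the SKOV3-DDP arrays the 75th percentile of intensity over all array probes was 48.2 to 54.2. There, 16.8% of the probes on in SKOV3 and off in IOSE80 were on in all 3 arrays and 71.8% were on none. For the probes on in IOSE80 and off in SKOV3 the shares were 13.4% and 74.7%. For the probes on all 6 arrays 76.0% were on, and for those on none of the 6 the share was 3.47%.

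Among the array maker's control probes named E1A, ERCC or ETG, only ERCC-00062_278 and ETG05_66023 were well above background on all 6 arrays. Most of the others lay near the lowest values, so whether spike-in RNA was added cannot be read from them. What the probes above background bound was not tested. The log2 intensity of ERCC-00062_278 was 9.50, 9.91 and 9.56 in IOSE80 and 9.69, 10.19 and 11.28 in SKOV3, and that of ETG05_66023 was 6.06, 7.77 and 6.75 in IOSE80 and 7.68, 8.30 and 9.23 in SKOV3. Both were highest on SKOV3 replicate 3.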
